A study of Mus musculus with 11 samples.

Results

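The genes described here encode inhibitory receptors of T cells, the receptors that compete for nectins and nectin-like ligands, and the transcription factor TOX. The symbols *Pdcd1*, *Lag3*, *Havcr2*, *Cd160*, *Btla*, *Tigit*, *Cd96*, *Cd226* and *Tox* were listed by name, and 8 of the 9 were matched among the 35814 gene symbols of the count table. *Cd96* was not analysed here. They were chosen by name with the differences in expression between these groups in view, so that the levels and fold changes of all 3 comparisons count as used in the choice. Values of the 8 genes are therefore a description, with standard errors and counts of calls but without p-values.

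RNA was sequenced from CD4+ T cells sorted from kidneys of C57BL/6 mice, 2 days after renal ischemia-reperfusion injury (IRI), which was set by clamping both renal pedicles for 45 min in males aged 8 to 12 weeks. All 3 groups carry Cre recombinase under the CD4 promoter and all underwent IRI. The 3 CD4cre libraries, of genotype WT in the labels, are the controls. The 5 libraries labelled CD4IKK1 come from mice that also carry a floxed *Chuk* gene, which encodes the kinase IKK1, and the 3 labelled CD4NIK from mice with a floxed *Map3k14* gene, which encodes NIK. Both kinases act in the non-canonical NFκB pathway. The CD4 promoter is already active in thymocytes that give rise to CD4+ and CD8+ T cells, so that deletion by this Cre is not limited to CD4+ T cells. At most 50000 cells were used per library and their RNA was amplified before sequencing.

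Inhibitory receptors appear on T cells after activation and dampen signalling from the T cell receptor. PD-1, BTLA and TIGIT do so through tyrosine motifs in their cytoplasmic tails, which recruit phosphatases. TIGIT and CD226 bind the same ligands, CD155 (*Pvr*) and CD112 (*Nectin2*), with opposite effects, since CD226 costimulates and TIGIT inhibits. BTLA and CD160 share the ligand HVEM (*Tnfrsf14*). TOX is a nuclear protein needed for CD4+ T cell development in the thymus, and in chronically stimulated CD8+ T cells it sustains expression of several of these receptors.

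The libraries differed widely in T cell RNA, which bears on every value that follows. Library totals ranged from 15751632 to 25737046 estimated counts. Summed counts of *Trac*, *Trbc1* and *Trbc2*, the constant regions of the T cell receptor, were 35820, 22741 and 12558 in CD4cre replicates 1 to 3 and 60124, 111648 and 90324 in CD4NIK replicates 1 to 3. In CD4IKK1 replicates 1 to 5 the sums were 41, 868, 11413, 5277 and 5644, so that replicates 1 and 2 stood apart from all other libraries. The summed level of 15 Pan T markers was between 1411 and 2596 CPM (counts scaled to a common library size with edgeR's TMM factors of all 11 libraries) in CD4cre, between 32.97 and 1390 CPM in CD4IKK1 and between 7482 and 10790 CPM in CD4NIK. *Cd4* itself ranged from 32 to 1219 counts in CD4IKK1 and from 1051 to 2040 counts in CD4cre. The summed level of 12 neuronal and glial markers moved the other way, with 4712 to 5591 CPM in CD4cre, 6121 to 6821 CPM in CD4IKK1 and 1500 to 3346 CPM in CD4NIK, and 10 of these 12 genes exceeded 3 counts in all libraries of each group. On the CPM scale the libraries of each targeted group overlapped with the controls for the targeted gene. *Chuk* had 22.03 ± 9.67 CPM (SD, n = 3) in CD4cre and 20.4 ± 4.55 CPM (SD, n = 5) in CD4IKK1, and *Map3k14* had 17.9 ± 2.78 CPM in CD4cre and 22.5 ± 8.98 CPM in CD4NIK (SD, n = 3 each). Relative to 1000 counts of the T cell receptor constant regions, *Map3k14* had 14.1 to 23.4 counts in CD4cre and 3.73 to 5.61 in CD4NIK, and *Chuk* had 12.1 to 30.03 in CD4cre and 34.5 to 104.2 in CD4IKK1 replicates 3 to 5. On this scale 72.7% of all genes were below all controls in every CD4NIK library and 34.3% above them in these CD4IKK1 libraries. *Map3k14* was also lower in every CD4IKK1 library (1.86 to 9.23 CPM) than in every CD4cre library (14.7 to 19.6 CPM). A count per gene cannot separate deleted exons from the rest of the transcript, and the group names used here are those of the labels.

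In the annotation of GRCm39, *Pdcd1* lies on chromosome 1 from 93966027 to 93980312, *Cd160* on chromosome 3 from 96706079 to 96736667, *Tox* on chromosome 4 from 6686353 to 6991644, *Lag3* on chromosome 6 from 124881320 to 124888765 and *Havcr2* on chromosome 11 from 46345673 to 46374149. *Tigit* and *Btla* share chromosome 16, where they lie from 43469100 to 43484509 and from 45044475 to 45078033, 1560 kb apart. The 250 bases before the transcription start are shown for the 4 inhibitory receptors that passed the threshold in at least 1 comparison, because all 4 were called in the same direction when CD4IKK1 was compared with CD4NIK. They are taken from RefSeq on the assembly GRCm38.p6, which differs from GRCm39 in its coordinates. Capitals mark matches, on either strand, to the NFκB consensus, the NFAT core GGAAA, the AP-1 motif TGANTCA or the RUNX motif TGTGGT.
Pdcd1, chr1:94052554-94052803, minus strand: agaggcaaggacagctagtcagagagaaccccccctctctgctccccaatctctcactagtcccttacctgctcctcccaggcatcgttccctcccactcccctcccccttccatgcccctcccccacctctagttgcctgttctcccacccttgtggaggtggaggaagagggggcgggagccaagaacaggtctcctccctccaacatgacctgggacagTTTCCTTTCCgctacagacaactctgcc
Tigit, chr16:43664185-43664434, minus strand: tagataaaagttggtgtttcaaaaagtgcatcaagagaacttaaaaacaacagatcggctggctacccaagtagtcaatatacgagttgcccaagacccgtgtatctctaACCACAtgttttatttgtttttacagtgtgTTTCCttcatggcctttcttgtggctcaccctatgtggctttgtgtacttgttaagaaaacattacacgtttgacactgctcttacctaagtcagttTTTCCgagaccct
Btla, chr16:45224087-45224336, plus strand: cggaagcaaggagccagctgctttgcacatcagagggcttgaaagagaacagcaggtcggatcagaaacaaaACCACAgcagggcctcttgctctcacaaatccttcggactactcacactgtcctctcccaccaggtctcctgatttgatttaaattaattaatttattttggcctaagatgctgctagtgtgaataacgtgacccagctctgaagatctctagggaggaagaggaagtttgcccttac
Cd160, chr3:96814522-96814771, minus strand: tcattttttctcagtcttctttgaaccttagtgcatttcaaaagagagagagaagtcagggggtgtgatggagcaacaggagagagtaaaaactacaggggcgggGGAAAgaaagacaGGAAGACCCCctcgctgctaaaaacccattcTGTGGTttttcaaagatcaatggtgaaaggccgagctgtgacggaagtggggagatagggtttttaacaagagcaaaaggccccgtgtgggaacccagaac

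The *Pdcd1* window holds 2 NFAT cores side by side close to the start, and no match to the NFκB consensus. *Tigit* has 2 NFAT cores and 1 RUNX match, and *Btla* has 1 RUNX match. The *Cd160* window shown holds 1 NFκB match, 1 NFAT core and 1 RUNX match, which do not overlap, and a window at another start of *Cd160* holds 1 RUNX match alone. Together with *Havcr2*, 6 windows of 5 genes were searched, of which 1 held the NFκB consensus, 3 the NFAT core, 1 the AP-1 motif and 5 the RUNX motif. Of 32851 such windows of the RefSeq table, 7.25% held the NFκB consensus, 55.6% the NFAT core, 6.75% the AP-1 motif and 14.05% the RUNX motif. These are matches of letters, and binding was not measured.

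*Pdcd1*, which encodes PD-1, was the most abundant of the receptors in CD4cre and separated all 3 groups. It had 1833, 819 and 1007 counts in CD4cre, 0, 40, 107, 109 and 52 counts in CD4IKK1, and 4581, 3981 and 2472 counts in CD4NIK, each in the order of the replicates. Every CD4IKK1 library was below every CD4cre library, and every CD4NIK library was above them. The group levels were 53.6 ± 15.6 CPM in CD4cre (SD, n = 3), 3.18 ± 2.52 CPM in CD4IKK1 (SD, n = 5) and 208.5 ± 42.2 CPM in CD4NIK (SD, n = 3). CD4IKK1 differed from CD4cre by a log2 fold change of −4.07 (standard error 0.93) and CD4NIK by 1.94 (standard error 0.27). Without CD4IKK1 replicates 1 and 2 the former was −3.55 (standard error 0.42). In bulk RNA, fewer T cells in a library and less of a transcript per T cell cannot be told apart, and the part of T cell content in these differences was not tested beyond the values relative to T cell receptor transcripts given further on.

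*Tigit* followed the same order of groups with a wider spread. Its counts were 845, 217 and 195 in CD4cre, 1, 4, 8, 48 and 202 in CD4IKK1, and 971, 487 and 451 in CD4NIK. CD4IKK1 libraries were all below the CD4cre libraries on the CPM scale, with replicate 5 at 9.08 CPM close to the lowest control at 9.76 CPM. CD4NIK and CD4cre overlapped, because CD4cre replicate 1 at 32.5 CPM exceeded 2 of the CD4NIK libraries. The log2 fold change was −2.84 (standard error 1.25) for CD4IKK1 and 1.05 (standard error 0.52) for CD4NIK, both against CD4cre. Leaving out CD4IKK1 replicates 1 and 2 gave −2.14 (standard error 0.95) for the former, and leaving out replicate 5 gave −4.47 (standard error 1.04).

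*Cd226*, the activating counterpart of *Tigit*, differed more between CD4NIK and CD4cre than *Tigit* did in fold terms. It had 522, 301 and 269 counts in CD4cre, 24, 22, 160, 56 and 150 counts in CD4IKK1, and 2427, 2863 and 2388 counts in CD4NIK. The 3 groups did not overlap, with 16.1 ± 3.54 CPM in CD4cre (SD, n = 3), 4.26 ± 3.49 CPM in CD4IKK1 (SD, n = 5) and 148 ± 17.7 CPM in CD4NIK (SD, n = 3). CD4IKK1 was lower than CD4cre by a log2 fold change of −1.91 (standard error 0.63), or −1.38 (standard error 0.49) without its replicates 1 and 2. CD4NIK was higher than CD4cre by 3.19 (standard error 0.24).

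*Cd160* and *Btla*, the receptors that share HVEM as a ligand, were highest in CD4NIK and scattered in CD4IKK1. *Cd160* had 124, 136 and 122 counts in CD4cre, 0, 68, 192, 86 and 0 counts in CD4IKK1, and 906, 1274 and 727 counts in CD4NIK. The CD4IKK1 libraries thus lay on both sides of the controls, at −0.64 on the log2 scale (standard error 1.44), whereas all CD4NIK libraries were above the controls (3.21, standard error 0.27). With 1 library left out, the value for CD4IKK1 ranged from −1.57 (without CD4IKK1 replicate 3) to −0.32. *Btla* had 70, 16 and 40 counts in CD4cre, 211, 121 and 256 counts in CD4NIK, and 0, 0, 36, 5 and 0 counts in CD4IKK1. Its log2 fold change was 2.69 (standard error 0.63) for CD4NIK and −1.99 (standard error 1.62) for CD4IKK1, and 1 CD4IKK1 library at 2.04 CPM was within the range of the controls. Without that library, replicate 3, the latter fold change was −4.72 (standard error 1.55). CD160 is also found on NK cells and CD8+ T cells and BTLA on B cells. The 8 NK and CD8 markers summed to 33.5 to 64.0 CPM in CD4cre, 2.31 to 20.1 CPM in CD4IKK1 and 203 to 232 CPM in CD4NIK, with *Ncr1* at 0 in all CD4cre and CD4IKK1 libraries and between 0 and 18 counts in CD4NIK. The 4 B cell markers summed to 1.99 to 5.76 CPM, 0.546 to 5.50 CPM and 3.63 to 24.3 CPM in the same order. The part of such cells in the levels of *Cd160* and *Btla* was not tested.

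*Lag3* was close to the limit of detection, and *Havcr2* had no counts in most libraries. *Lag3*, whose product binds MHC class II, had 16, 15 and 12 counts in CD4cre, 16, 1, 9, 22 and 25 in CD4IKK1, and 9, 26 and 15 in CD4NIK. The groups overlapped, and the log2 fold change was 0.23 (standard error 1.08) for CD4IKK1 and 0.52 (standard error 0.80) for CD4NIK against CD4cre. *Havcr2*, which encodes TIM-3, had 72 counts in CD4cre replicate 1 and 45 in CD4IKK1 replicate 4, 2 in CD4IKK1 replicate 1, and 0 in the other 8 libraries. It did not pass the expression filter of edgeR and was not tested. A count of 0 allows up to 3 counts, which is between 0.115 and 0.211 CPM in these libraries and covers counting error only. Myeloid cells express *Havcr2* as well, and 11 myeloid and dendritic markers summed to 250 to 691 CPM in CD4cre, 40.5 to 77.4 CPM in CD4IKK1 and 440 to 750 CPM in CD4NIK, where all *Havcr2* counts were 0. CD4cre replicate 1, with 72 *Havcr2* counts, had 691 CPM of these markers. Of this list, *Lyz2* was at 190.4 ± 142 CPM, *Cd14* at 86.6 ± 84.2 CPM and *Csf1r* at 33.6 ± 10.1 CPM in CD4cre (SD, n = 3), whereas *Itgam* was at 0 in all CD4cre libraries and had 0 to 54 counts in CD4IKK1 and 0 to 7 in CD4NIK. The part of myeloid cells in the *Havcr2* counts was not tested.

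The level of *Tox* was similar in CD4IKK1 and CD4cre, with overlapping libraries. It had 900, 900 and 797 counts in CD4cre, 894, 620, 536, 502 and 854 in CD4IKK1, and 743, 1460 and 1089 in CD4NIK. In CD4IKK1 replicate 1, in which *Pdcd1*, *Cd160* and *Btla* had no counts, *Tox* reached 57.2 CPM, more than in any CD4cre library. The group levels were 39.4 ± 4.57 CPM in CD4cre (SD, n = 3), 36.7 ± 12.5 CPM in CD4IKK1 (SD, n = 5) and 63.3 ± 19.1 CPM in CD4NIK (SD, n = 3), and the groups overlapped. Against CD4cre, CD4IKK1 was at −0.10 (standard error 0.26) and CD4NIK at 0.66 (standard error 0.27) in log2 fold change. *Tox* is also expressed in the brain, and the neuronal and glial markers given above were present in every library. Their summed level was highest, at 6821 CPM, in the CD4IKK1 library with the most *Tox*. In CD4NIK, where *Tox* was higher on average, these markers were lower than in CD4cre. Their part in the level of *Tox* was not tested.

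**Figure D1:**
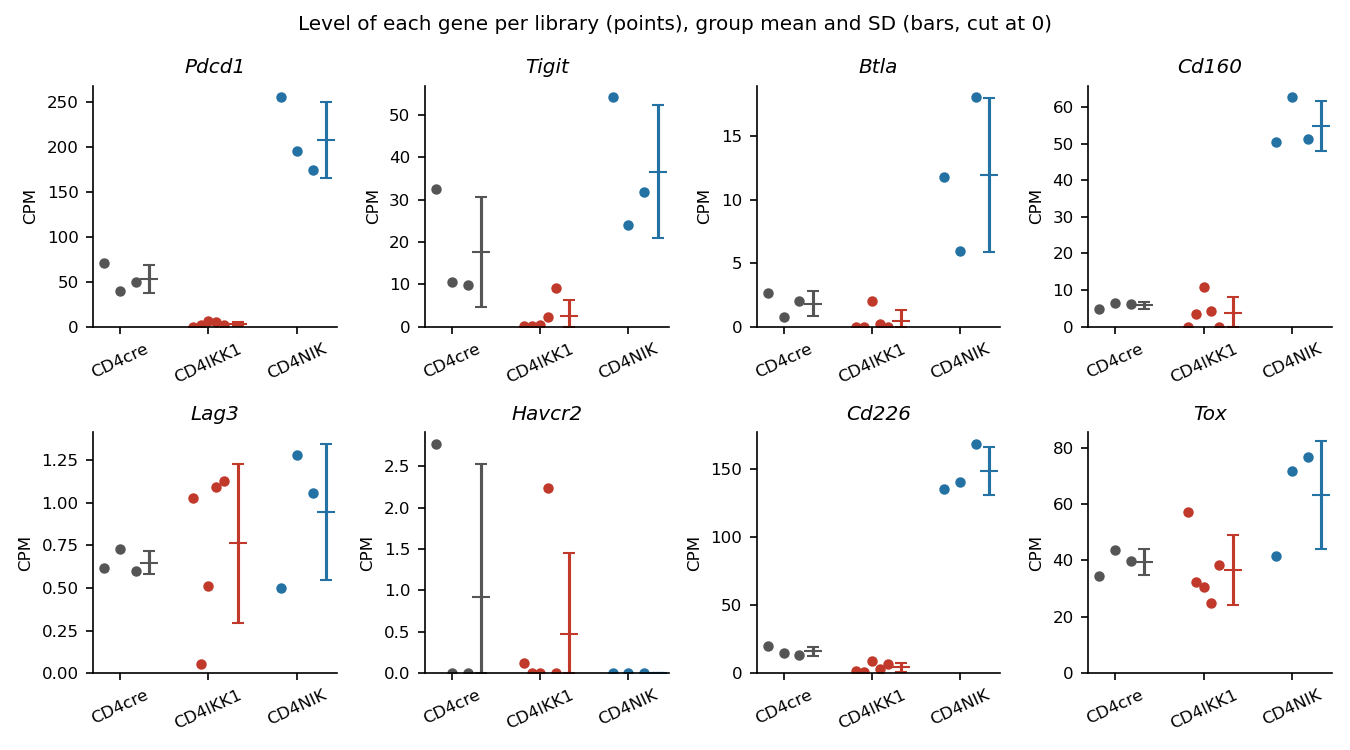
Level of the 8 genes in CPM (y axis, from 0) in each of the 11 libraries, by group on the x axis. Points are libraries and bars the group mean and SD, which are drawn no lower than 0. For *Pdcd1* and *Cd226* the 3 groups do not overlap, whereas for *Lag3* and *Tox* they do.

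Levels of different genes were compared per kilobase of the canonical transcript. In CD4cre the order was *Pdcd1* (27.3 ± 7.94 CPM per kb), *Tigit* (16.8 ± 12.3), *Tox* (9.82 ± 1.14), *Cd226* (3.51 ± 0.774), *Cd160* (2.31 ± 0.376), *Btla* (0.515 ± 0.274), *Havcr2* (0.327 ± 0.566) and *Lag3* (0.324 ± 0.0350), each as mean and SD of 3 libraries. Of neighbours in this order, *Pdcd1* and *Tigit*, *Tigit* and *Tox*, *Btla* and *Havcr2*, and *Havcr2* and *Lag3* overlapped between libraries. CD4NIK kept *Pdcd1* at the top (106 ± 21.4 CPM per kb), followed by *Tigit* (34.9 ± 15.0), *Cd226* (32.4 ± 3.87), *Cd160* (21.7 ± 2.68) and *Tox* (15.8 ± 4.76), of which *Tigit* and *Cd226* overlapped. CD4IKK1 had *Tox* at the top (9.14 ± 3.10 CPM per kb, SD, n = 5), with *Tigit* (2.32 ± 3.65), *Pdcd1* (1.62 ± 1.28) and *Cd160* (1.48 ± 1.77) below it. Each of these overlapped with its neighbour in the order between libraries.

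Between CD4IKK1 and CD4cre none of the 7 tested members passed an FDR under 0.05 (Benjamini-Hochberg over all genes) with a more than 2-fold difference in edgeR's quasi-likelihood test, and neither did any of the 15653 genes tested (0% lower and 0% higher). At an unadjusted p under 0.05 there were 3 of the 7, against 16.6% of all genes. DESeq2 with the same libraries placed 2 members, *Pdcd1* and *Cd226*, below its threshold of the same size, against 4.41% of the genes with an adjusted p, and 0 members above it, against 0.354%. *Tigit*, *Btla* and *Lag3* had no adjusted p in that fit and could not be called. *Pdcd1* alone was called by edgeR once CD4IKK1 replicate 1 was left out (log2 fold change −3.76), and likewise without replicates 1 and 2. All CD4IKK1 libraries were below all controls for 3 members, *Pdcd1*, *Tigit* and *Cd226*, and for 8.44% of all genes. No member was above all controls in every CD4IKK1 library, as were 5.99% of all genes. Of the 7, 6 had a log2 fold change below 0, with a median of −1.91, whereas the median over all genes was 0.02.

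Between CD4NIK and CD4cre, *Pdcd1*, *Cd160*, *Btla* and *Cd226* passed the threshold as higher, 4 of 7 members against 10.4% of the genes tested. None was lower, against 6.99% of all genes. The same 4 members were above all controls in every CD4NIK library, as were 23% of all genes. At an unadjusted p under 0.05 there were 5 of 7 members against 36.9% of all genes, and DESeq2 called 4 members higher against 13.3% of its genes and none lower against 9.95%. All 7 members had a log2 fold change above 0, with a median of 1.94, and the median over all genes was −0.02. None of the 4 calls remained with counts scaled to the T cell receptor constant regions or to the Pan T markers, or with the Pan T score as a covariate. The scalings gave 0.86 and 0.95 for *Cd160*, 0.35 and 0.45 for *Btla*, 0.91 and 0.99 for *Cd226* and −0.27 and −0.22 for *Pdcd1*, and *Tox* was then called lower. Scaled to the Pan T markers, *Cd226* passed the FDR and missed only the fold threshold. The covariate left *Pdcd1* at 1.87 (standard error 0.85) and *Cd160* at 3.51 (0.93). It left *Btla* at 2.07 (2.1) and *Cd226* at 2.19 (0.66). With all 11 libraries in the fit only *Cd226* passed. *Pdcd1* (1.95, standard error 0.85), *Cd160* (3.23, standard error 1.47) and *Btla* (2.70, standard error 1.51) kept their fold changes there, with larger standard errors. *Btla* no longer passed without CD4cre replicate 2 (2.35), CD4cre replicate 3 (2.78) or CD4NIK replicate 3 (2.27), and *Tigit* passed without CD4cre replicate 1 (1.83).

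The direct comparison of CD4IKK1 with CD4NIK, fitted on all 11 libraries, gave log2 fold changes of −6.02 for *Pdcd1* (standard error 0.83), −5.11 for *Cd226* (0.59), −4.69 for *Btla* (1.36), −3.88 for *Tigit* (1.16) and −3.87 for *Cd160* (1.24). These 5 members passed the threshold as lower in CD4IKK1, as did 18.5% of all genes, and the libraries of the groups did not overlap for any of the 5, nor for 24.6% of all genes in this direction. In the opposite direction the groups were separate for 0 members and 20.5% of all genes. At an unadjusted p under 0.05 there were 6 of 7 members against 49.5% of all genes, and DESeq2 called 3 members lower against 20.3% of its genes. *Tox* (−0.78, standard error 0.28) and *Lag3* (−0.31, standard error 0.94) did not pass. *Cd160* was not called without CD4IKK1 replicate 2 or 4 or any 1 of the CD4NIK libraries (−3.93 to −3.77), nor when the 8 libraries of these groups were fitted alone or genes were kept from 1 count in any library (−3.87 in both), *Tigit* not without CD4NIK replicate 1 (−3.50) and *Btla* not without CD4NIK replicate 3 (−4.26), whereas *Tox* passed without CD4NIK replicate 1 (−1.02), CD4IKK1 replicate 1 (just past 2-fold) or CD4IKK1 replicates 1 and 2 together (−1.01). *Btla* was at −7.40 without CD4IKK1 replicate 3. With 1 library left out, *Tigit* ranged from −5.52 to −3.50. None of the 5 calls remained when counts were scaled to the T cell receptor constant regions or to the Pan T markers, with *Pdcd1* at −1.35 and −1.90 and *Btla* at −1.18 and −1.46, and *Tox* and *Lag3* were then called higher. The receptor scaling rests on 41 receptor counts in CD4IKK1 replicate 1. Without CD4IKK1 replicates 1 and 2 it gave −1.83 for *Pdcd1* (standard error 0.64), which was then called lower. With the Pan T score as a covariate, 1 member was called lower. With at least 10 counts required in every library 1 was called lower too, but only *Cd226* and *Tox* had the counts to be tested. CD4cre libraries are shared by both comparisons with controls, so that the comparisons are not independent of each other. Since all these contrasts may have guided the list, the counts are given without further reading.

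**Figure D2:**
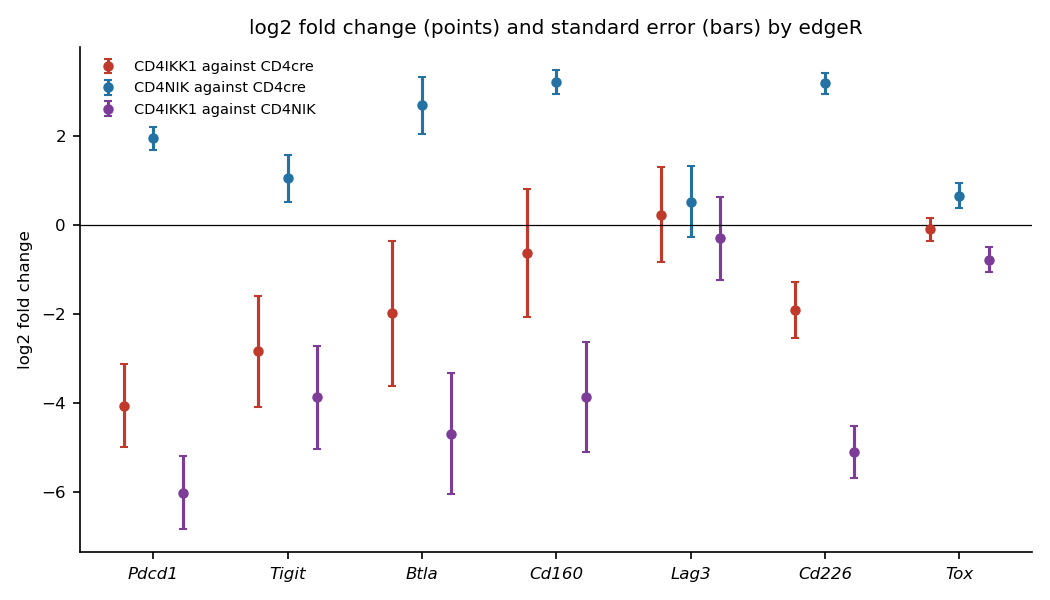
Log2 fold change (y axis) of the 7 tested members (x axis) in the 3 comparisons, named by colour, with standard errors as bars. *Pdcd1* and *Cd226* lie below 0 for CD4IKK1 and above 0 for CD4NIK against CD4cre, and *Tox* lies close to 0 for CD4IKK1.

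Since T cell RNA differed between libraries, the counts were also set against 1000 counts of the T cell receptor constant regions. On this scale, *Pdcd1* had 51.2, 36.01 and 80.2 in CD4cre, 76.2, 35.7 and 27.4 in CD4NIK, and 46.1, 9.38, 20.7 and 9.21 in CD4IKK1 replicates 2 to 5. CD4NIK thus overlapped with CD4cre, and its log2 fold change with this scaling was −0.27 (standard error 0.56). CD4IKK1 replicates 3 to 5 remained below all controls, as were 0.818% of all genes, and below all CD4NIK libraries, as were 1.69%, whereas replicate 2, whose ratio rests on 40 *Pdcd1* and 868 receptor counts, was within their range. Scaled in this way and without replicates 1 and 2, the log2 fold change of *Pdcd1* was −2.09 (standard error 0.73) for CD4IKK1 against CD4cre, and −1.62 (standard error 2.07) with all libraries. In replicate 1, 41 receptor counts are too few for a ratio to be read.

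*Cd226* had no overlap between CD4NIK and CD4cre on this scale, although it was no longer called. It had 14.6, 13.2 and 21.4 counts per 1000 receptor counts in CD4cre and 40.4, 25.6 and 26.4 in CD4NIK. All 3 CD4NIK libraries were above the controls, as were 1.16% of all genes, and the scaled log2 fold change was 0.91 (standard error 0.53). For *Cd160* the values were 3.46, 5.98 and 9.72 in CD4cre and 15.1, 11.4 and 8.05 in CD4NIK, with an overlap of 1 library from each group. *Btla* had 1.95, 0.704 and 3.19 in CD4cre and 3.51, 1.08 and 2.83 in CD4NIK, which overlapped. *Tigit* had 23.6, 9.54 and 15.5 in CD4cre and 16.2, 4.36 and 4.99 in CD4NIK, and its log2 fold change with this scaling was −0.93 (standard error 0.63). In CD4IKK1 replicates 3 to 5, *Cd226* had 14.0, 10.6 and 26.6 and *Tigit* 0.701, 9.10 and 35.8, so that both overlapped with the controls. The difference of *Cd226* between CD4IKK1 and CD4cre thus did not remain on this scale (0.06, standard error 0.80, without replicates 1 and 2). *Tox* had 25.1, 39.6 and 63.5 counts per 1000 receptor counts in CD4cre, 12.4, 13.1 and 12.1 in CD4NIK, and 47.0, 95.1 and 151 in CD4IKK1 replicates 3 to 5. *Tox* and *Lag3* were thus below all controls in every CD4NIK library, as were 72.7% of all genes, and above all CD4NIK libraries in CD4IKK1 replicates 3 to 5, as were 74.6% of all genes. None of the 8 genes was above all controls in these 3 CD4IKK1 libraries, in contrast to 34.3% of all genes.

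**Figure D3:**
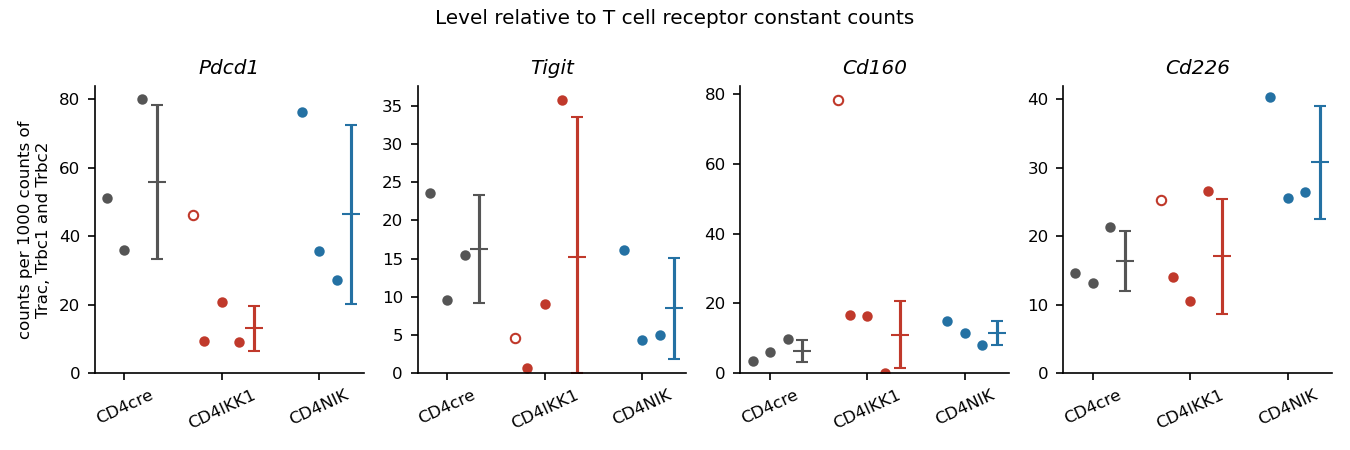
Counts of 4 receptors per 1000 counts of *Trac*, *Trbc1* and *Trbc2* (y axis, from 0) by group (x axis). Points are libraries, bars are the mean and SD, CD4IKK1 replicate 1 is left out, and the open point is CD4IKK1 replicate 2, which is not part of the mean. *Pdcd1* is lower in the 3 filled CD4IKK1 points than in CD4cre, and *Cd226* is higher in CD4NIK than in CD4cre.

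The balance of *Cd226* and *Tigit* needs no scaling for library size, because both counts come from the same library. The mix of cells in a library can still shift it, and the part of cells other than CD4+ T cells was not tested. *Cd226* made up 38.2% (95% Wilson interval 35.6 to 40.8), 58.1% (53.8 to 62.3) and 58.0% (53.4 to 62.4) of the counts of both genes in CD4cre replicates 1 to 3. In CD4NIK it made up 71.4% (69.9 to 72.9), 85.5% (84.2 to 86.6) and 84.1% (82.7 to 85.4). The CD4NIK libraries were thus all above the controls, with intervals that do not meet. CD4IKK1 had 96.0% (80.5 to 99.3), 84.6% (66.5 to 93.8) and 95.2% (90.9 to 97.6) in replicates 1 to 3, and 53.8% (44.3 to 63.1) and 42.6% (37.6 to 47.8) in replicates 4 and 5. The latter 2 lay within the range of the controls and the other 3 above it, of which replicates 1 and 2 rest on 25 and 26 counts. These intervals account for counting error alone, because the libraries were amplified and reads were not counted by molecule. Per kilobase, *Tigit* exceeded *Cd226* in all CD4cre libraries, with a ratio of *Cd226* to *Tigit* between 0.142 and 0.318, and the ratio was 0.573, 1.35 and 1.21 in CD4NIK.

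**Figure D4:**
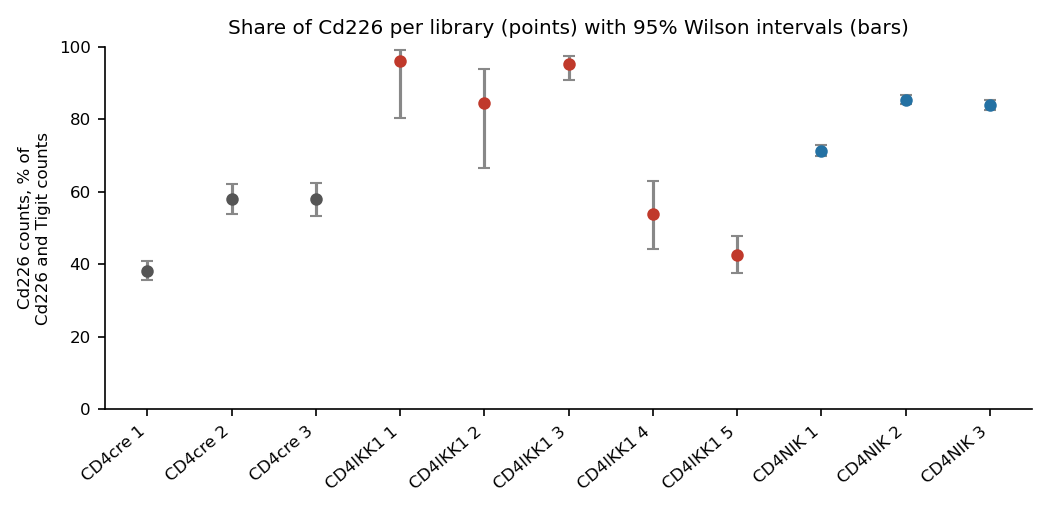
Share of *Cd226* in the summed counts of *Cd226* and *Tigit* (y axis, percent) in each library (x axis), with 95% Wilson intervals as bars. The CD4NIK libraries lie between 71.4% and 85.5%, above the CD4cre libraries at 38.2% to 58.1%, and the CD4IKK1 libraries lie between 42.6% and 96.0%.

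Genes that act with these receptors were fitted together with the members, as 5 lists of 56 genes in all. These lists, too, were drawn up with earlier results of these libraries known, so that their calls and FDRs describe these libraries and are no independent support for a direction. Between CD4NIK and CD4cre, 27 of 55 tested genes were called higher and 1 lower, against 10.4% and 6.99% of all genes, with a median log2 fold change of 1.45. The count of 27 was 15 or 16 without CD4cre replicate 2 or 3 or CD4NIK replicate 2 or 3, 7 with all 11 libraries in the fit and 0 with the Pan T score as a covariate, and it turned to 4 higher and 19 lower with scaling to the T cell receptor constant regions. Between CD4IKK1 and CD4cre, 51 were tested and none was called by edgeR in either direction, while 17 had an unadjusted p under 0.05, against 16.6% of all genes, and DESeq2 called 9 lower and 0 higher, against 4.41% and 0.354%. The direct comparison called 35 of 55 lower and 1 higher in CD4IKK1, against 18.5% and 14.8% of all genes, with a median of −3.14. The direction of these counts turned when counts were scaled to the T cell receptor constant regions, with 1 listed gene lower and 24 higher, or to the Pan T markers, with 1 lower and 22 higher.

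Of the ligands of the members, 3 of 11 tested genes rose and 1 was called lower in CD4NIK against CD4cre. *Cd274*, which encodes the PD-1 ligand PD-L1, rose from 6.18 ± 2.04 to 51.4 ± 11.2 CPM (SD, n = 3 each), with a log2 fold change of 3.04 and an FDR of 0.00275 in edgeR's quasi-likelihood test. *Pdcd1lg2*, the gene of the other PD-1 ligand PD-L2, rose from 12.1 ± 4.67 to 36.4 ± 15.6 CPM (log2 fold change 1.56, FDR 0.0374 from edgeR), and *Lgals3*, which encodes galectin-3, rose by 1.16 (FDR 0.0223 from edgeR). *Nectin1*, a nectin on epithelial and neuronal cells, was at 15.1 ± 0.664 CPM in CD4cre and 6.48 ± 1.94 CPM in CD4NIK (log2 fold change −1.24, FDR 0.0470 from edgeR), a call that was lost without any 1 of the CD4cre libraries, without CD4NIK replicate 2 or 3 and with the Pan T score as a covariate. The neuronal and glial markers given above were likewise lower in every CD4NIK library than in every CD4cre library, and their part in the level of *Nectin1* was not tested. In CD4IKK1 against CD4cre the gene with the lowest FDR of this list was *Pdcd1lg2* (log2 fold change −2.70, standard error 0.77, FDR 0.146 from edgeR), with all libraries below the controls. Compared with CD4NIK, 4 ligands were called lower in CD4IKK1, among them *Cd274* (−3.98), *Pdcd1lg2* (−4.27) and *Pvr*, the ligand of TIGIT and CD226 (−2.60, FDR 0.00186 from edgeR), and *Nectin1* was called higher (1.74, FDR 0.000511 from edgeR).

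Of the phosphatases and adaptors, 2 of 8 rose in CD4NIK against CD4cre. *Ptpn6*, which encodes the phosphatase SHP-1, rose from 9.84 ± 7.41 to 92.4 ± 36.3 CPM (SD, n = 3 each, log2 fold change 3.22, standard error 0.65, FDR 0.0164 from edgeR), and the kinase gene *Fyn* rose by 1.27 (FDR 0.0159 from edgeR). *Fyn* also had the lowest FDR of this list in CD4IKK1 against CD4cre, at 43.8 ± 6.53 CPM (SD, n = 5) against 77.3 ± 12.9 CPM (SD, n = 3), without passing the threshold (log2 fold change −0.82, FDR 0.0898 from edgeR). *Fyn*, *Csk*, *Ptpn6* and *Inpp5d*, the gene of the phosphatase SHIP-1, were called lower in CD4IKK1 than in CD4NIK, by −2.09, −2.32, −6.34 and −2.73.

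Other inhibitory receptors had the highest median of the 5 lists in CD4NIK against CD4cre (3.62), with 8 of 9 called higher and none lower. *Klrg1*, a marker of terminally differentiated T cells, had 0.0501 ± 0.0867 CPM in CD4cre and 35.8 ± 16.5 CPM in CD4NIK (SD, n = 3 each, FDR 0.00191 from edgeR). *Ctla4* rose from 44.5 ± 24.4 to 271 ± 61.3 CPM (log2 fold change 2.59, standard error 0.38, FDR 0.00599 from edgeR). *Lilrb4a* and *Cd200r1*, which are also expressed by myeloid cells, rose by 3.62 (FDR 0.00255 from edgeR) and 4.42 (FDR 0.0202 from edgeR). In CD4IKK1 against CD4cre, *Vsir*, the gene of VISTA, was at 0.863 ± 0.924 CPM (SD, n = 5) against 10.3 ± 10.0 CPM (SD, n = 3), which did not pass (log2 fold change −3.57, FDR 0.164 from edgeR). Against CD4NIK, 7 of 9 were called lower in CD4IKK1, with *Vsir* at −6.15, *Ctla4* at −5.61, *Cd200r1* at −4.66 and *Cd101* at −3.76.

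Costimulatory receptors, a list that also holds *Cd40lg*, the gene of the ligand of CD40, moved alongside them. In CD4NIK against CD4cre, 9 of 11 were called higher and none lower, among them *Slamf1* (log2 fold change 2.85, FDR 0.00191 from edgeR), *Cd40lg* (3.02, FDR 0.00339), *Icos* (2.27, FDR 0.00405) and *Tnfrsf4*, which encodes OX40 (1.86, FDR 0.00461). *Icos* had 88.8 ± 32.1 CPM in CD4cre and 433 ± 93.2 CPM in CD4NIK (SD, n = 3 each). All 10 tested genes of the list had a log2 fold change below 0 in CD4IKK1 against CD4cre without passing the threshold, the lowest FDR being that of *Slamf6* (−2.39, FDR 0.154 from edgeR). In the direct comparison 10 of 11 were called lower in CD4IKK1, with *Slamf6* at −5.44, *Tnfrsf18*, the gene of GITR, at −3.39, *Slamf1* at −4.89 and *Cd40lg* at −5.63.

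Among transcription factors of T cell exhaustion, 5 of 16 rose in CD4NIK against CD4cre. *Id2* rose from 709 ± 133 to 1983 ± 360 CPM (SD, n = 3 each, log2 fold change 1.47, FDR 0.00716 from edgeR), *Nfatc1*, encoding a calcium-regulated factor downstream of the T cell receptor, by 1.81 (FDR 0.0148), *Batf* by 1.45 (FDR 0.0166) and *Tcf7*, encoding TCF-1 of naive and memory-like T cells, by 2.55 (FDR 0.0207). *Id2* had the lowest FDR of this list in CD4IKK1 against CD4cre, at −0.79 (FDR 0.0668 from edgeR). In CD4IKK1 compared with CD4NIK, 10 of 16 were called lower, with *Id2* at −2.27, *Maf* at −2.88, *Id3* at −2.14 and *Nfatc2* at −1.71. The summed Pan T markers and NK and CD8 markers were higher in every CD4NIK library than in every CD4cre library, and the sums of B cell, myeloid and kidney tubule markers overlapped. In every CD4IKK1 library the sums of Pan T, NK and CD8, myeloid and 8 kidney tubule markers were below those of every CD4cre library, the last at 2.99 to 11.96 CPM against 17.6 to 86.3 CPM in CD4cre and 12.4 to 103.3 CPM in CD4NIK. The part of these cells in the results was not tested.

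**Figure D5:**
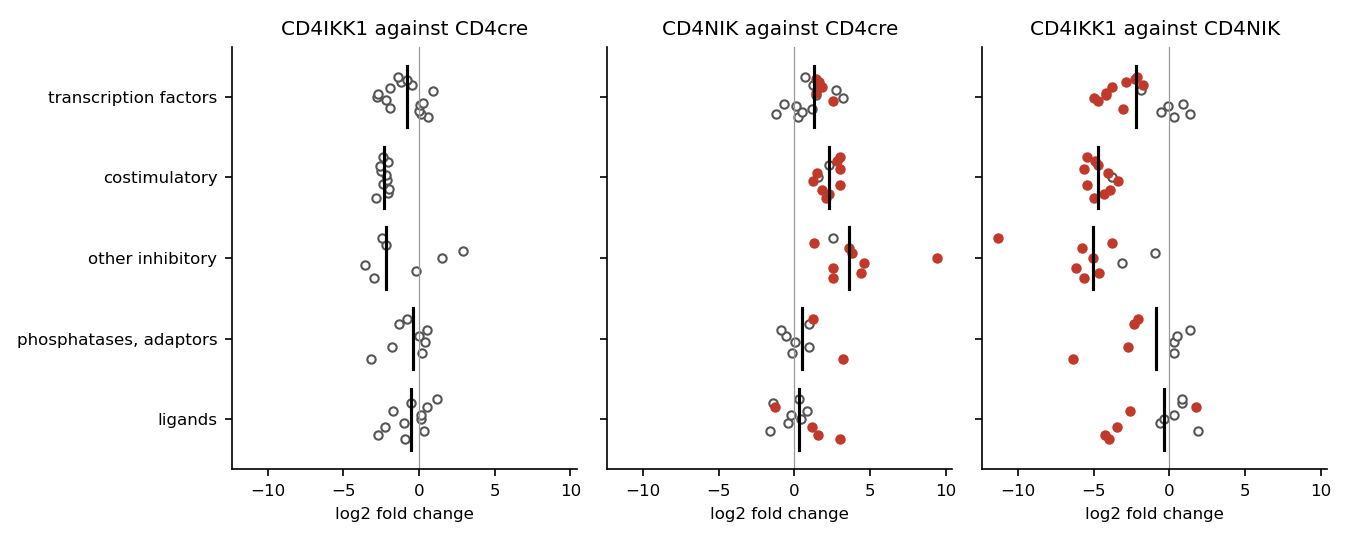
Log2 fold change (x axis) of the tested genes of 5 lists (y axis) in the 3 comparisons, 1 panel each. Points are genes, filled where called and open where not, and vertical bars are the median of each list. No gene is filled for CD4IKK1 against CD4cre, whereas 8 of 9 other inhibitory receptors are filled to the right of 0 for CD4NIK against CD4cre.

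The genes with the pattern most like each member were taken as those with the smallest root mean square difference of centred log2 CPM over the 11 libraries, among 16546 genes. *H2-Ab1*, an MHC class II gene (0.49), and *Sting1* (0.59) were nearest to *Pdcd1*, whose own root mean square deviation was 3.34. *H2-Ab1* is also among the myeloid and dendritic markers used here, with 56.0 ± 5.33 CPM in CD4cre, 3.08 ± 2.89 CPM in CD4IKK1 and 173.1 ± 93.4 CPM in CD4NIK (SD, n = 3, 5 and 3), and the part of such cells in the level of *Pdcd1* was not tested. *Txnip* (0.32) and *Il7r*, the gene of the IL-7 receptor (0.52), were nearest to *Tigit*, and *Trim5* (0.36) and *Mndal* (0.46) to *Cd226*. *Il12rb1* (0.85) and *Aurkb* (0.94) were nearest to *Cd160*, and *Gm29094* (0.66) and *Ucp2* (0.70) to *Btla*. *Tox*, with a deviation of 0.48, was nearest to *Srsf11* (0.25) and *Prpf4b* (0.26), which act in RNA splicing and are expressed in most cells, and *Lag3* to *Prkcz2* (0.29). *Lag3* had a deviation of 0.84 at 1 to 26 counts per library, and a small difference between genes that vary little shows no shared pattern. Among the 5 tested members other than *Lag3* and *Tox*, *Btla* and *Cd226* were closest to each other (1.02). *Pdcd1* was about equally far from *Tigit* (1.56), *Btla* (1.57), *Cd226* (1.64) and *Cd160* (1.73), and *Tigit* was closest to *Cd226* (1.48). All libraries enter these values, so that they share the differences in T cell RNA.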

How the data were processed

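The data are estimated counts of 11 libraries, grouped by the sample titles. The authors removed adapters with Trimmomatic, quantified transcripts by kallisto and deposited a table of estimated counts with 1 row per gene symbol, which is not normalized. The paper names GRCm39 and the labels name mm10. The kallisto version is not given in the sources used here. Of each library's values 35.1% to 41.7% were fractional, and all were rounded. Of 35814 symbols, 33508 (93.6%) matched GENCODE release M39, which gave positions and transcript lengths. No 2 libraries held identical values (55 pairs).

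The members and lists were chosen with earlier results of these data known. After edgeR's filterByExpr and TMM normalization, the robust quasi-likelihood test of edgeR 4.0.16 was run in R 4.3.3, p-values were adjusted by Benjamini-Hochberg, and genes with FDR below 0.05 and an over 2-fold change were called. Comparisons with CD4cre used their own groups, and CD4IKK1 against CD4NIK all 11 libraries. Standard errors come from the F statistic. The tests were checked on simulated counts. Levels are CPM with TMM factors of all libraries, and log2 CPM use a prior count of 2. Named genes are all members, the nearest 2 genes to each (1 of them is not reported here), the targeted genes and, per list and comparison, at most 4 called genes of lowest FDR or, with none called, the gene of lowest FDR.

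Alternatives were DESeq2 (1.42.0), other factors and filters, scaling to T cell receptor constant regions or Pan T markers, the Pan T score as a covariate, all or fewer libraries in the fit, a test without robust estimation, the replicate number as a block, no fold threshold, and leaving out each library. Leaving out CD4IKK1 replicates 1 and 2 together with receptor scaling was added after seeing the data. The labels call the libraries biological replicates without naming the animals, and p-values measure the spread between these libraries. Promoter windows of chromosome 18 were not used here.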

Additional observations from a re-analysis of the deposited data

Results flagged for a closer look

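In CD4IKK1, 1 library stood far above the other 4 for 3 members: *Havcr2* at 2.23 CPM in replicate 4, *Btla* at 2.04 CPM in replicate 3 and *Tigit* at 9.08 CPM in replicate 5. Each gap to the next library was 94.3%, 87.8% and 74.3% of the range of the group, above the critical share of 71.0% for 5 samples, which chance exceeds in about 1 of 20 groups of normally distributed values. That rate does not hold for groups made up mostly of counts at or near 0, as here, and the gaps are given as a description. The 3 values come from 3 different libraries.

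*Pdcd1* was lower in every CD4IKK1 library (log2 fold change −4.07) and higher in every CD4NIK library (1.94) than in every CD4cre library, and so was *Cd226* (−1.91 and 3.19). Scaled to the T cell receptor constant regions, *Pdcd1* was at −0.27 in CD4NIK, and *Cd226* in CD4IKK1 was at 2.95 with all libraries and at 0.06 without replicates 1 and 2. The 2 comparisons share the CD4cre libraries. Both genes were past the threshold in the direct comparison of CD4IKK1 with CD4NIK, which is a description for members chosen with values known, and no further test of the difference was made.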

How the results depend on the processing

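Counts of called genes depended strongly on how T cell RNA was treated, and the cause was not tested. In what follows, "genes" are all genes tested and "listed" are the 5 lists of genes that act with the receptors. Scaled to *Trac*, *Trbc1* and *Trbc2*, CD4NIK against CD4cre gave 10443 genes lower and 84 higher, 1 member lower and 0 higher, and 19 listed genes lower and 4 higher. Scaled to the Pan T markers the same counts were 10737 and 104, 1 and 0, and 20 and 3. CD4IKK1 against CD4NIK gave 48 genes lower and 14453 higher, 0 members lower and 2 higher, and 1 listed gene lower and 24 higher with the former scaling, and 65 and 14079, 0 and 2, and 1 and 22 with the latter, by which 4 genes were higher in CD4IKK1 than in CD4cre. With the Pan T score as a covariate, CD4NIK against CD4cre gave 0 genes, members and listed genes in either direction, and CD4IKK1 against CD4NIK gave 377 genes lower and 362 higher, 1 member lower, and 3 listed genes lower and 0 higher. In CD4NIK against CD4cre the covariate left log2 fold changes of 1.87 for *Pdcd1*, 3.51 for *Cd160*, 2.07 for *Btla* and 2.19 for *Cd226*.

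Some log2 fold changes of members changed sign, both among members called and among those not called. In CD4NIK against CD4cre, scaling to the receptor and to the Pan T markers gave −0.27 and −0.22 for *Pdcd1*, −0.93 and −0.95 for *Tigit*, −1.77 and −1.64 for *Tox*, which was then called lower, and −1.88 and −1.75 for *Lag3*. The covariate gave −0.22 for *Tox* and −1.43 for *Lag3*. In CD4IKK1 against CD4NIK these scalings gave 1.03 and 0.32 for *Cd160* and 0.73 and 0.28 for *Tigit*, 8.51 and 5.96 for *Tox* and 8.60 and 6.02 for *Lag3*, which were both then called higher, and the former gave 2.03 for *Cd226*. The covariate gave 1.73 for *Btla* and 0.56 for *Tigit*. In CD4IKK1 against CD4cre the scalings gave 6.74 and 4.32 for *Tox*, 1.88 and 1.26 for *Cd160* and 2.95 and 0.91 for *Cd226*, and the covariate gave 1.08 for *Cd160* and 0.67 for *Btla*. *Tox* was at 0.01 there without CD4IKK1 replicate 4. With CD4IKK1 replicates 1 and 2 left out and scaled to the receptor, *Tigit* was at 0.83, *Tox* at 2.97 and *Lag3* at 4.06 against CD4NIK, and *Cd160* at 0.79, *Cd226* at 0.06 and *Tox* at 1.19 against CD4cre.

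Without CD4IKK1 replicates 1 and 2, CD4IKK1 against CD4cre gave 36 genes, 1 member and 1 listed gene lower, and 2 listed genes were higher than in CD4NIK. With the receptor scaling in addition, it gave 22 genes lower and 3778 higher, 1 member lower and 7 listed genes higher, and the comparison with CD4NIK gave 94 genes lower and 13009 higher, 1 member lower and 2 higher, and 2 listed genes lower and 26 higher.

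DESeq2 with the libraries of the comparison gave 511 genes lower and 41 higher, 2 members lower and 9 listed genes lower in CD4IKK1 against CD4cre, 1660 genes lower in CD4NIK against CD4cre and 3 members lower in CD4IKK1 against CD4NIK. DESeq2 with all 11 libraries gave 645 genes lower and 65 higher, 2 members lower and 11 listed genes lower in the first comparison, and 1 member and 16 listed genes higher in CD4NIK against CD4cre. The edgeR fit of all 11 libraries gave 129 genes lower in CD4IKK1 against CD4cre, and 865 genes, 1 member and 7 listed genes higher in CD4NIK against CD4cre. RLE and upper-quartile factors each gave 1 gene lower in CD4IKK1 against CD4cre, and upper-quartile factors 1717 lower in CD4NIK against CD4cre. The filter of 1 count in any library gave 48 genes lower in CD4IKK1 against CD4cre. The filter of 10 counts in every library gave 156 lower and 3 higher with 1 listed gene lower, and, against CD4NIK, 1 member and 14 listed genes lower. Of the members, only *Cd226* and *Tox* passed this filter in these comparisons. Upper-quartile factors, library size alone and no fold threshold each gave 2 listed genes higher in CD4IKK1 than in CD4NIK.

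Leaving out 1 library at a time gave, for CD4IKK1 against CD4cre, 0 to 23 genes lower, 0 to 1 higher and 0 to 1 members lower. For CD4NIK against CD4cre it gave 60 (without CD4NIK replicate 3) to 1773 (without CD4NIK replicate 1) genes lower, 614 to 1703 higher, 3 to 5 members higher, 0 to 1 listed genes lower and 15 to 31 higher, with counts of 15 or 16 without CD4cre replicate 2 or 3 or CD4NIK replicate 2 or 3. *Nectin1* was the listed gene called lower. For CD4IKK1 against CD4NIK it gave 2396 to 3080 genes lower, 1720 to 2698 higher, 3 (without CD4NIK replicate 3) to 6 members lower, 29 to 35 listed genes lower and 1 to 2 higher.

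Libraries with the same replicate number showed no shared deviation from their group means, with correlations between −0.089 and 0.077 over 9 pairs. Few libraries and large differences in T cell RNA enter these values, so that they cannot exclude a pairing. With the replicate number as a block, 3 genes were lower in CD4IKK1 than in CD4cre, 190 genes lower and 995 higher and 0 listed genes lower in CD4NIK against CD4cre, and 2 listed genes higher in CD4IKK1 than in CD4NIK. The block also gave −4.14 for *Btla*, −5.97 for *Tigit* and −0.79 for *Lag3* in CD4IKK1 against CD4cre.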
